A study of Mus musculus with 2 samples.

Results

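The receptor for epidermal growth factor and 5 of its ligands were followed through the cells of the mouse lung. The 6 genes were taken by name from the 33696 genes of the deposited tables: amphiregulin (Areg, ENSMUSG00000029378), epiregulin (Ereg, ENSMUSG00000029377), heparin-binding EGF-like growth factor (Hbegf, ENSMUSG00000024486), transforming growth factor alpha (Tgfa, ENSMUSG00000029999), betacellulin (Btc, ENSMUSG00000082361) and the receptor itself (Egfr, ENSMUSG00000020122). All 6 were detected in both libraries and were taken as a family, not by a threshold on their values. The study asked how loss of the transcriptional repressor GFI1 alters the immune cells of the lung. It profiled live cells sorted from enzymatically dissociated lungs of adult mice by droplet single-cell RNA sequencing of transcript 3′ ends. One library came from a mouse labelled GFI1 KO, which the study calls a germline knockout, and one from a mouse labelled GFI1 WT. Both mice were numbered 1, the background was C57BL6/J, and the labels name no treatment. With 1 library per genotype, genotype, mouse and library preparation cannot be told apart, so no test was made and every interval covers counting error only.

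All ligands of this family are made as membrane-anchored precursors. A protease, most often ADAM17 escorted by the iRhom proteins, cuts them free, and the released domain binds EGFR on neighbouring cells, where it drives growth and repair. Amphiregulin is best known in the lung as a product of group 2 innate lymphoid cells, regulatory T cells and basophils that answer alarmins such as IL-33 through the receptor ST2, encoded by Il1rl1, while EGFR is a receptor of epithelial and mesenchymal cells. Sources and receivers are therefore described in turn.

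Amphiregulin carried the widest differences between the libraries, and its promoter is shown here because the gene is known to answer cyclic AMP through one element close to its start. The 250 bases before the Areg start in RefSeq, on the plus strand of GRCm38.p6 at chr5:91139349-91139598, read 5′ to 3′ with the cAMP response element in capitals. The files use GRCm39, so this position is not one of theirs.
Areg: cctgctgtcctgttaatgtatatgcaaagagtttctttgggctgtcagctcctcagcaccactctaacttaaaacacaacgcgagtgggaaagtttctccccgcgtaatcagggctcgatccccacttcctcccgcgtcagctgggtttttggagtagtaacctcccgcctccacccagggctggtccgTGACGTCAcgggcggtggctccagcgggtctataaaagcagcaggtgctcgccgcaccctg
The motif searched was TGACGTCA, which reads the same on both strands, and it lay 61 to 54 bases before the start. It occurred in 508 of 32851 windows of this length, or 1.55%. RefSeq windows of 4 of the 6 genes were examined singly, and those of Tgfa, Btc and Egfr held 0 copies. No result is given for Ereg and Hbegf, whose windows were not examined singly. A match is a run of letters and not evidence of binding.

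After the study's filters, 10495 of 10700 cells were kept in the library labelled GFI1 KO and 19342 of 19515 in that labelled GFI1 WT, with medians of 11076 and 6217 unique molecular identifiers (UMIs, 1 per captured transcript) per cell. Clustering gave 53 clusters, 31 of which carried the markers of a known type, and these were joined into 22 classes, each named "-like" and together holding 80.6% and 84.1% of the cells. The libraries shared 74 barcodes. Gfi1 RNA was at 3.60 CPM (340 UMIs) in the KO and 3.47 CPM (470 UMIs) in the WT library, where CPM is UMIs per 1000000 UMIs of the same cells. The 3′ reads of Gfi1 therefore did not separate the genotypes, and directions rest on the labels. Class sizes differed greatly. Classical monocyte-like cells numbered 3726 in the KO and 162 in the WT library, neutrophil-like cells 8 and 1430, and general capillary endothelial-like cells 75 and 1560. A KO/WT ratio is given for the 13 classes with at least 20 cells in each library, and a gene is called higher or lower at a ratio of at least 2 or at most 0.5 with at least 20 UMIs in the class. A library at 0 was set to a limit of 3 counts.

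Over all kept cells, Areg held 5656 UMIs in the KO library (59.9 CPM, 95% interval 58.3 to 61.5) and 5222 in the WT library (38.5 CPM, 37.5 to 39.6). These UMIs came from 1160 and 1311 cells. Areg was therefore found in few cells of most classes, and a small number of cells decided many of the levels below.

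**Figure D1:**
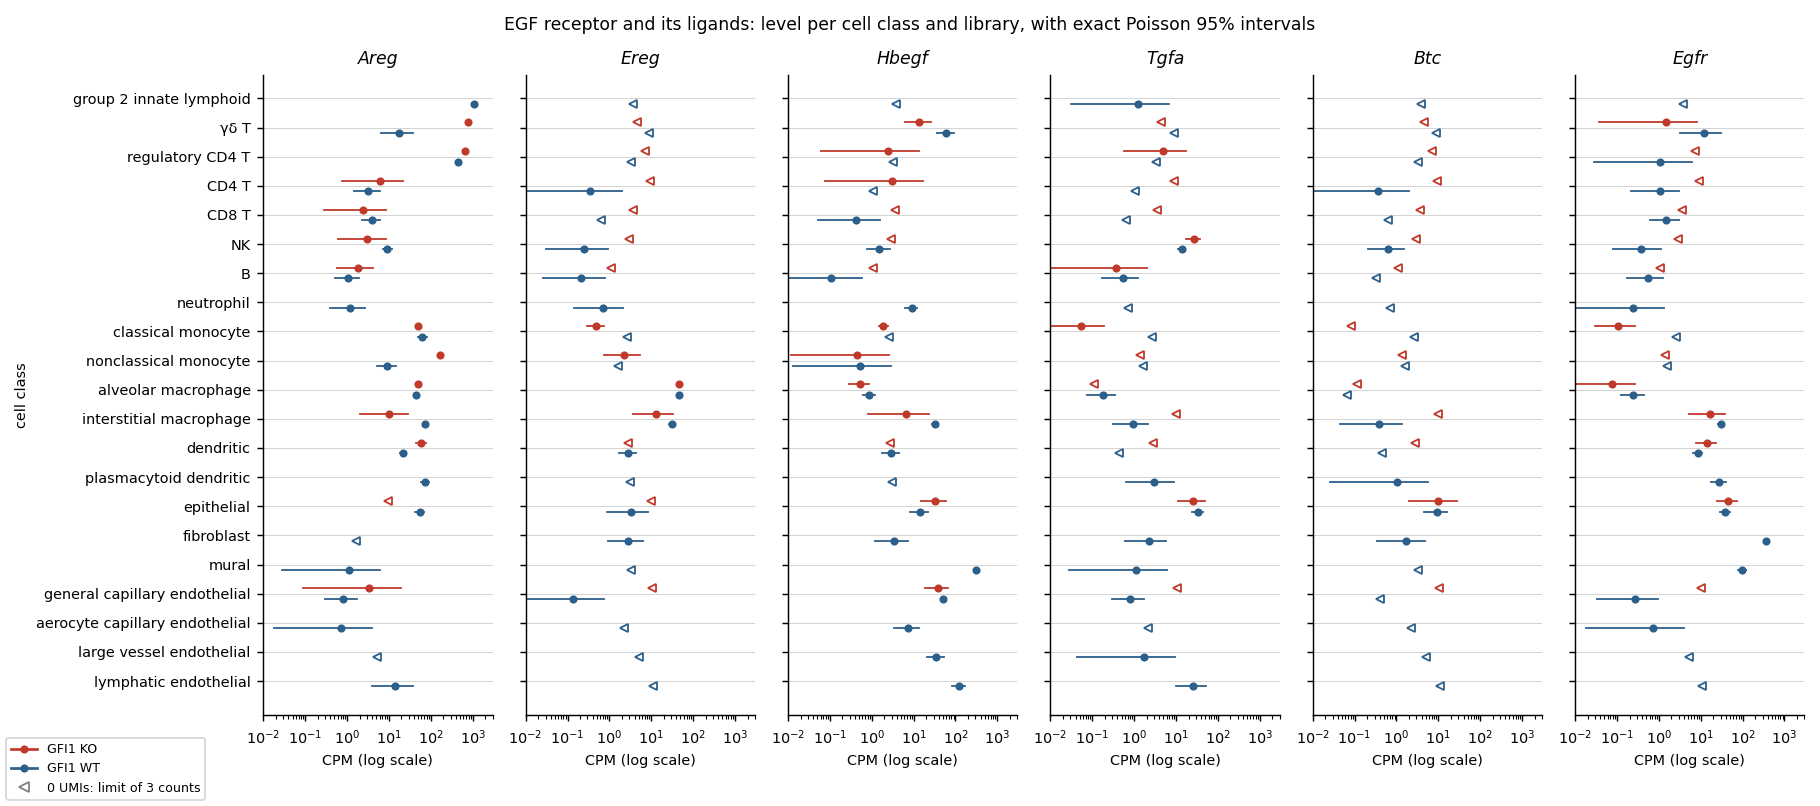
Level of each of the 6 genes, in CPM on a log axis, in 21 cell classes of the GFI1 KO (red) and GFI1 WT (blue) library, for classes with at least 20 cells in that library. Bars are exact Poisson 95% intervals and open triangles mark the limit of 3 counts where no UMI was found. Areg was highest in group 2 innate lymphoid-like cells of the WT library (1110 CPM), Hbegf in mural-like cells (317 CPM) and Egfr in fibroblast-like cells (356 CPM).

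Group 2 innate lymphoid-like cells were the class with the highest Areg level in the WT library. Their 151 WT cells held 884 UMIs, a level of 1110 CPM (1038 to 1186), and 85 of them had at least 1 Areg UMI. All 10 markers of the class were raised in this cluster, and Il1rl1, the gene of ST2, stood at 1222 CPM. The KO library held only 9 such cells, with 18 Areg UMIs in 3 of them, a level of 478 CPM, and no ratio is given. ST2 RNA did not separate the cells with Areg from those without: 82 of 85 Areg-positive and 63 of 66 Areg-negative WT cells had an Il1rl1 UMI. An Il13 UMI, for the type 2 cytokine IL-13, was found in 6 and 1 of them. Levels were uneven within the class, the 16 cells with most Areg holding 61.1% of its UMIs and the highest cell 91. Scrublet, which scores cells that look like 2 cells in one droplet, marked 11.9% of the cluster, and without those cells the level was 1372 CPM.

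γδ T-like cells showed the widest difference. The 140 cells of the KO library held 515 Areg UMIs and the 68 cells of the WT library 6, giving levels of 773 CPM (708 to 843) and 17.8 CPM (6.52 to 38.7). The KO/WT ratio was 43.5 (19.9 to 119), while 9.38% of the 6812 genes tested in this class had a ratio of at least 2. Areg was found in 46 of 140 KO cells and 4 of 68 WT cells, with at most 95 UMIs in a KO cell and 2 in a WT cell. The leading genes of the cluster were Blk, Il23r, Il1r1, Il17a and Trgc1, the set of the IL-17-producing type of γδ T cell. After each cell was thinned to 1500 UMIs, 35 of 139 KO cells (25.2%, 18.2 to 33.2) and 2 of 65 WT cells (3.08%, 0.375 to 10.7) had an Areg UMI. The unthinned shares were 32.9% and 5.88%, and median depths were close, at 4300 and 4654.5 UMIs. In B-like cells, which should lack the gene, the thinned shares were 0.232% and 0.149%, at median depths of 2919.5 and 3124 UMIs.

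The class was not uniform. A UMI of Trdc, the γδ receptor constant gene, was found in 66 of the KO and 18 of the WT cells, and values are given for both parts, a split chosen after the data were seen. Among Trdc-positive cells, the KO library held 473 Areg UMIs in 37 cells (1339 CPM) and the WT library 2 UMIs in 1 of its 18 cells (26.6 CPM). Among Trdc-negative cells, 74 KO cells held 42 UMIs (134 CPM, 96.7 to 181) and 50 WT cells 4 UMIs (15.2 CPM), a ratio of 8.80 (3.19 to 33.8) against 8.37% of genes at or above 2. The Trdc-negative KO cells were partly of another kind, since 75.7% of them had a UMI of Trac, the αβ receptor constant gene, compared with 24.2% of the Trdc-positive ones. The WT cells showed the same split, with a Trac UMI in 74.0% of Trdc-negative and 16.7% of Trdc-positive cells, and Trdc-negative cells made up 50 of the 68 WT against 74 of the 140 KO cells. The WT cells of the class also joined other clusters under other settings. At a finer clustering resolution the class held 130 KO cells and 1 WT cell, and with each library clustered alone 63 and 0. When cells were instead picked one by one from marker gates, 80 KO cells with 456 Areg UMIs and 97 WT cells with 15 gave a log2 ratio of 5.28. The clusters gave 5.44. The gates required a Trdc UMI, which only 18 WT cells of the class had, so most gated WT cells lay outside it. The 2 ratios thus compare different sets of cells.

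Areg-positive γδ T-like cells of the KO library differed from the Areg-negative ones in which other genes were seen. Trdc was detected in 37 of 46 positive cells (80.4%) and in 29 of 94 negative cells (30.9%). Il17a, the gene of the cytokine IL-17A, was found in 89.1% and 66.0%, and Nr4a1, an immediate-early gene of antigen receptor signalling, in 89.1% and 60.6%. The positive cells were somewhat deeper, with a median of 4791.5 UMIs against 3847.5. Il1rl1 had 0 UMIs in this class in either library, so ST2 RNA was not detected in these cells. Receptor RNA for IL-18 and IL-1 was present. Il18r1, of the IL-18 receptor, was found in 80.4% of positive and 90.4% of negative cells, and Il1r1, of the IL-1 receptor, in 93.5% and 87.2%. The 14 cells with most Areg held 82.5% of the UMIs of the class, and 20 cells had 5 or more.

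Regulatory CD4 T-like cells were high in both libraries. The 119 KO cells held 274 Areg UMIs (655 CPM, 579 to 737) and the 210 WT cells 411 (450 CPM, 407 to 496). The ratio of 1.45 (1.24 to 1.70) did not reach 2, as 3.45% of genes did, although its counting interval lay above 1. Areg was found in 45 KO and 54 WT cells, with at most 38 and 56 UMIs in a cell. After thinning, the shares of cells with Areg were 34.0% (24.9 to 44.0) and 40 of 200 cells (14.7% to 26.2%), and the intervals overlapped. All 8 regulatory T cell markers were raised in this cluster, and its leading genes, Il1rl1, Tnfrsf4, Foxp3, Ctla4 and Areg, are those of the effector type. A UMI of Foxp3, the defining transcription factor, was seen in only 24 KO and 56 WT cells. Within these, Areg was at 1522 and 997 CPM (174 and 263 UMIs), was found in 75.0% and 48.2% of the cells, and had a ratio of 1.53 (1.25 to 1.85). Gates on single cells, which kept 26 KO and 72 WT cells, moved the log2 ratio from 0.54 to 1.31, past the 2-fold mark.

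In these cells ST2 RNA and Areg were seen together. Il1rl1 had a UMI in 32 of 54 Areg-positive WT cells (59.3%) and in 21 of 156 Areg-negative ones (13.5%). In the KO library the counts were 11 of 45 (24.4%) and 0 of 74. Foxp3 followed the same order, in 27 of 54 and 29 of 156 cells (18.6%) in the WT and 18 of 45 and 6 of 74 cells (8.11%) in the KO library, while Il18r1 was at 72.2% and 59.6% in the WT and 77.8% and 79.7% in the KO library. Il1rl1 was itself lower in the KO cells, at 100 CPM (42 UMIs) against 316 CPM (289 UMIs), a ratio of 0.317 (0.224 to 0.439), where 5.12% of genes had a ratio of at most 0.5. Il18r1 had a ratio of 1.60 (1.42 to 1.79). These ratios are of sums over the whole class, where Areg stood at 655 CPM in the KO library. Whether the class held the same kinds of cell in both libraries was not tested. An Il17a UMI was seen in 9 of 45 Areg-positive and 9 of 74 Areg-negative KO cells of this class. The 21 WT cells with most Areg held 77.4% of its UMIs and the 12 such KO cells 70.4%.

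**Figure D2:**
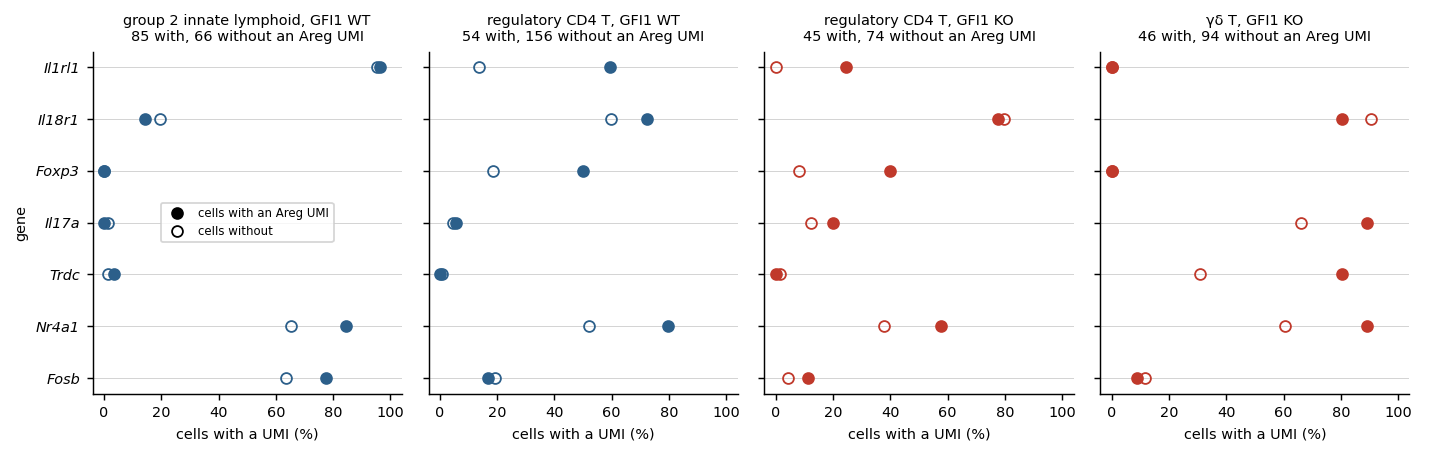
Percent of cells with at least 1 UMI of 7 genes (Il1rl1, Il18r1, Foxp3, Il17a, Trdc, Nr4a1 and Fosb) among cells with (filled) and without (open) an Areg UMI, in group 2 innate lymphoid-like cells of the WT library, regulatory CD4 T-like cells of both libraries and γδ T-like cells of the KO library. Il1rl1 separated the 2 kinds of cell in regulatory CD4 T-like cells (59.3% against 13.5% in the WT library), was near-uniform in group 2 innate lymphoid-like cells and was absent from γδ T-like cells.

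The remaining lymphocytes held little Areg. CD4 T-like cells outside the regulatory cluster had 2 UMIs in 91 KO cells and 9 in 736 WT cells, and CD8 T-like cells 2 in 200 and 18 in 1100. NK-like cells had 3 UMIs in 218 KO cells (2.94 CPM) and 73 in 2038 WT cells (9.27 CPM). Their ratio of 0.317 (0.0638 to 0.962) met the rule for lower, against 7.58% of genes, but 22 of the 73 WT UMIs sat in 1 cell. B-like cells stood at 1.80 and 1.07 CPM. Basophil-like cells, a type named as a source of amphiregulin in the literature, numbered 19 and 15. They held 4 Areg UMIs in 1 KO cell and 0 in the WT library, too few cells to rank.

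**Figure D3:**
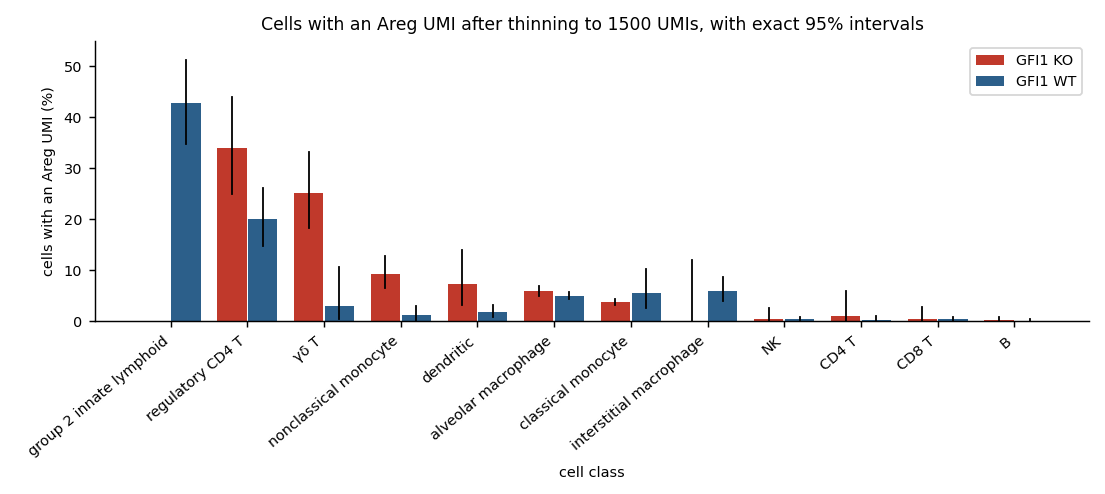
Percent of cells with an Areg UMI after each cell was thinned to 1500 UMIs, in 12 classes of the GFI1 KO and GFI1 WT library. Lines are Clopper-Pearson 95% intervals. Group 2 innate lymphoid-like WT cells reached 42.9%, γδ T-like cells 25.2% in the KO and 3.08% in the WT library, and B-like cells, which should lack the gene, 0.232% and 0.149%.

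Among myeloid cells, nonclassical monocyte-like cells differed most. Their 380 KO cells held 359 Areg UMIs (164 CPM, 147 to 182) and their 352 WT cells 17 (9.05 CPM, 5.27 to 14.5), a ratio of 18.1 (11.2 to 31.4) where 2.62% of genes were at 2 or above. The class is the patrolling monocyte of the vessels, led here by Cd300e, Adgre4 and Treml4. Areg was found in 56 KO and 6 WT cells, with at most 33 and 6 UMIs in a cell, and the 38 KO cells with most Areg held 94.99% of its UMIs. Thinned shares were 9.31% (6.57 to 12.7) and 1.16% (0.316 to 2.93), and median depths were 4961 and 4907 UMIs. The size of the ratio depended on which cells were taken. The log2 ratio of 4.18 became 3.25 at a coarser clustering, 2.77 with each library clustered alone and 1.35 with marker gates, which took in 970 KO and 968 WT cells.

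Alveolar macrophage-like cells, the resident phagocytes of the airspace, differed less. There were 1363 UMIs in 2368 KO cells (50.9 CPM, 48.2 to 53.6) and 1991 in 3729 WT cells (44.1 CPM, 42.2 to 46.1), a ratio of 1.15 (1.08 to 1.24), where 0.715% of genes were at 2 or above. Areg was found in 458 KO and 642 WT cells. The class joins more than one cluster, and values per cluster were added after the data were seen. In the larger cluster, led by Nrg4, levels were 55.3 and 48.9 CPM and the ratio 1.13 (1.05 to 1.21). In the cluster led by Ltc4s, Fabp1, Ear2 and Ear1, levels were 33.2 CPM (177 UMIs) and 15.1 CPM (97 UMIs) and the ratio 2.20 (1.71 to 2.85), where 0.650% of genes were at 2 or above.

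The leading genes of classical monocyte-like cells included Vcan, F13a1, Saa3, Prtn3 and Lcn2. All 8 markers of the class were raised, and so were 3 of 8 neutrophil and 3 of 8 immature granulocyte markers. Whether KO and WT cells were alike in these genes was not tested. The class held 1839 Areg UMIs in the KO library (49.2 CPM, 313 cells) and 72 in the WT library (63.1 CPM, 17 cells), a ratio of 0.779 (0.616 to 1.00). The direction was not stable, since the log2 ratio of -0.36 became -1.05 at a finer clustering and 0.62 with each library clustered alone. Interstitial macrophage-like cells, led by C1qa, C1qc, C1qb and Pf4, were lower in the KO library. Their 29 KO cells had 3 UMIs in 1 cell (9.95 CPM, 2.05 to 29.1) and their 460 WT cells 390 UMIs in 110 cells (73.2 CPM, 66.1 to 80.9). The ratio was 0.136 (0.0279 to 0.40), with 10.7% of genes at or below 0.5. These 29 KO cells stood apart in other ways: Scrublet marked 17.2% of them against 2.17% of the WT cells, and the summed level of 16 immediate-early and dissociation genes was 19027 against 10376 CPM. The part of either in the Areg value was not tested.

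Dendritic-like cells held 63 Areg UMIs in the KO library (58.8 CPM, 10 of 111 cells) and 148 in the WT library (21.7 CPM, 34 of 577 cells), a ratio of 2.71 (1.98 to 3.66) against 2.14% of genes at or above 2. The class was split. In the cluster led by Ccl22, Cd209a, Fscn1 and Il12b, levels were 125 and 25.6 CPM (63 and 101 UMIs) and the ratio 4.86 (3.49 to 6.72), where 4.48% of genes passed. In the cluster led by Xcr1, Itgae and Cd207, the cross-presenting type, the KO library had 0 UMIs in 56 cells and the WT library 47 in 221, at least 3.09-fold lower against 9.99% of genes. Plasmacytoid dendritic-like cells had 73 UMIs in 37 of 132 WT cells (74.3 CPM, 58.2 to 93.4) and 5 UMIs in 4 of 13 KO cells. Neutrophil-like cells were at 1.18 CPM in the WT library (5 UMIs).

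Epithelial-like cells were rare, 23 in the KO and 57 in the WT library, and were picked by a gate on Epcam and keratin or cadherin RNA added after the data were seen. The KO cells held 0 Areg UMIs and the WT cells 67 in 10 cells (55.1 CPM), at least 5.72-fold lower, where 10.9% of genes were at or below 0.5. Of the 67 UMIs, 39 sat in 1 secretory cell, so this difference rested largely on one cell. Fibroblast-like cells had 0 Areg UMIs in either library.

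**Figure D4:**
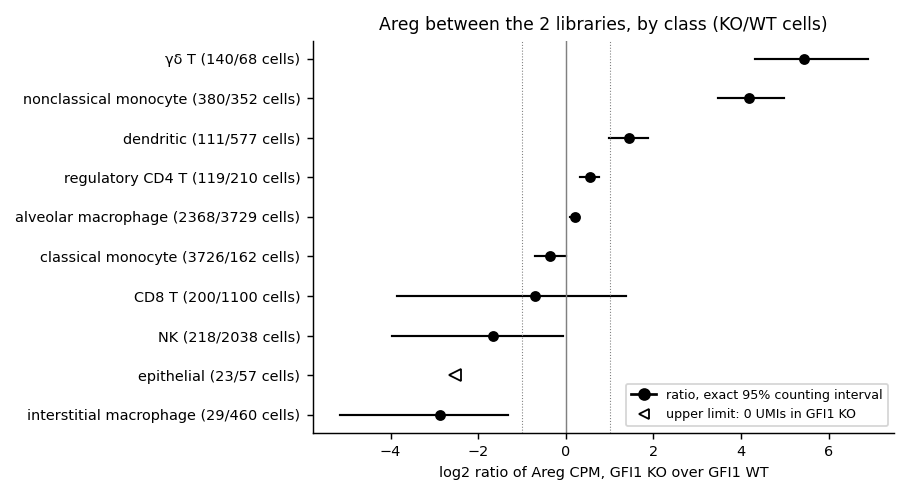
Log2 KO/WT ratio of Areg in the 10 classes with at least 20 Areg UMIs, with 95% counting intervals. The open triangle is the upper limit for epithelial-like cells, which had 0 UMIs in the KO library, and dotted lines mark 2-fold. γδ T-like (5.44), nonclassical monocyte-like (4.18) and dendritic-like cells (1.44) lay above the upper line and interstitial macrophage-like (-2.88), epithelial-like (-2.52) and NK-like cells (-1.66) below the lower one.

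Of the 10 classes with enough Areg UMIs, Areg was thus called higher in 3 and lower in 3. In the order of Areg levels of the KO library, over classes with at least 20 KO cells, which leaves out the 9 group 2 innate lymphoid-like cells (478 CPM, 283 to 755), γδ T-like and regulatory CD4 T-like cells came first with overlapping intervals, followed by nonclassical monocyte-like cells, and then by dendritic-like, alveolar macrophage-like and classical monocyte-like cells, which could not be ranked among themselves. In the WT library, group 2 innate lymphoid-like cells came first and regulatory CD4 T-like cells second. Plasmacytoid dendritic-like, interstitial macrophage-like, classical monocyte-like, epithelial-like and alveolar macrophage-like cells followed, each overlapping its neighbour, and dendritic-like and γδ T-like cells came after them.

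Because class sizes differed, the share of the Areg RNA that each class held was also computed. Only named classes are listed. An unnamed cluster led by Aif1, described under other observations, held more KO Areg UMIs than γδ T-like cells. In the KO library classical monocyte-like cells held 32.5% of Areg UMIs (and 39.6% of all UMIs), alveolar macrophage-like cells 24.1% (28.4%), γδ T-like cells 9.11% (0.706%), nonclassical monocyte-like cells 6.35% (2.32%) and regulatory CD4 T-like cells 4.84% (0.443%). In the WT library alveolar macrophage-like cells held 38.1% (33.3%), group 2 innate lymphoid-like cells 16.9% (0.587%), regulatory CD4 T-like cells 7.87% (0.674%) and interstitial macrophage-like cells 7.47% (3.93%). γδ T-like and regulatory CD4 T-like cells in the KO library, and group 2 innate lymphoid-like and regulatory CD4 T-like cells in the WT library, thus held a larger share of the Areg UMIs than of all UMIs. So, by a smaller factor, did nonclassical monocyte-like cells in the KO library and alveolar and interstitial macrophage-like cells in the WT library. The lymphoid classes with most Areg UMIs were γδ T-like cells in the KO and group 2 innate lymphoid-like cells in the WT library.

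**Figure D5:**
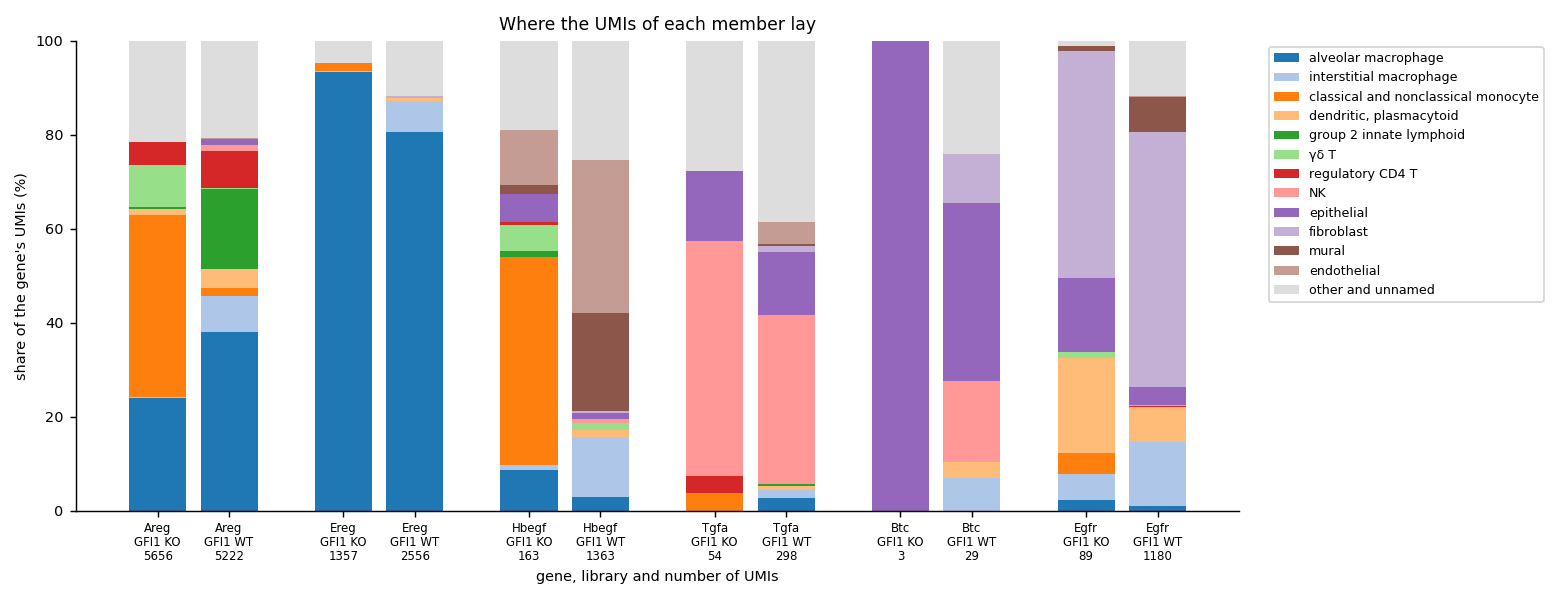
Share of each gene's UMIs, in percent, held by each group of classes in the GFI1 KO and the GFI1 WT library. Alveolar macrophage-like cells held 93.4% and 80.7% of Ereg, fibroblast-like cells 48.3% and 54.2% of Egfr and NK-like cells 27 of 54 UMIs and 35.9% of Tgfa, while Areg was spread over myeloid and lymphoid classes.

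Epiregulin, a ligand best known from macrophages and from follicles of the ovary, was found mainly in alveolar macrophage-like cells, which held 93.4% of its KO and 80.7% of its WT UMIs. The WT share was 43.9% when cells were picked by marker gates. The clustered cells held 1267 UMIs in the KO library (47.3 CPM, 44.7 to 49.96) and 2062 in the WT library (45.7 CPM, 43.8 to 47.7), in 288 and 433 cells. The ratio was 1.03 (0.964 to 1.11). The highest cells had 52 and 73 UMIs, and the tenth of cells with most Ereg held 96.0% and 97.1% of the UMIs. In the Ltc4s and Ear2 cluster the levels were 15.6 and 7.93 CPM (83 and 51 UMIs), a ratio of 1.96 (1.37 to 2.84) that stopped short of 2. Ereg and Areg tended to be seen in the same macrophages. With cells thinned to equal depth, an Areg UMI was found in 16 of 92 Ereg-positive KO cells (17.4%) and 5.38% of the others, and in 30 of 154 WT cells (19.5%) and 4.38% of the others. These counts pool the clusters of the class, which differed in the levels of both genes. The part of that difference was not tested. Interstitial macrophage-like cells had 4 Ereg UMIs in the KO library (13.3 CPM) and 165 in the WT library (31.0 CPM), a ratio of 0.428 (0.115 to 1.12) that met the rule for lower while its interval included 1. γδ T-like, regulatory CD4 T-like, group 2 innate lymphoid-like, CD8 T-like and plasmacytoid dendritic-like cells had 0 Ereg UMIs in both libraries.

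Hbegf, whose product binds EGFR and ERBB4 and also serves as the diphtheria toxin receptor in humans, was highest in the vessel wall. Mural-like cells, the pericytes and smooth muscle around vessels, held 284 UMIs in 70 of 147 WT cells (317 CPM, 281 to 356). All 70 cells were among the 86 of one cluster, led by Trpc6, Gucy1a1 and Notch3 (436 CPM), and the 61 cells of the second, led by Hhip, had 0 UMIs. The KO library held 5 mural-like cells with 3 UMIs. General capillary endothelial-like cells had 11 UMIs in 8 of 75 KO cells (37.8 CPM, 18.9 to 67.6) and 379 in 278 of 1560 WT cells (50.9 CPM, 45.9 to 56.3). The ratio of 0.743 (0.368 to 1.34) could not be told from 1 at this depth. Large vessel endothelial-like WT cells stood at 34.5 CPM and aerocyte capillary endothelial-like WT cells, the gas-exchange type, at 7.28 CPM. Lymphatic endothelial-like WT cells were at 122 CPM, but 24 of their 34 UMIs sat in 1 cell.

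Hbegf was called in 3 of the 7 classes with enough UMIs. It was lower in interstitial macrophage-like cells, with 2 KO UMIs (6.63 CPM) and 174 WT UMIs (32.7 CPM) and a ratio of 0.203 (0.0244 to 0.744). It was also lower in γδ T-like cells, with 9 and 20 UMIs (13.5 and 59.2 CPM) and a ratio of 0.228 (0.0915 to 0.524), against 7.46% of genes at or below 0.5, but 12 of the 20 WT UMIs were in 1 cell. It was higher in epithelial-like cells, with 10 and 17 UMIs (32.1 and 13.99 CPM) and a ratio of 2.29 (0.939 to 5.31), where 4.91% of genes were at or above 2, and 5 of the 10 KO UMIs were in 1 type 1 alveolar cell. Classical monocyte-like cells had 71 UMIs in the KO and 0 in the far smaller WT class, which allows no fold. In γδ T-like cells Areg and Hbegf thus differed in opposite directions between the same libraries. Of the 4 genes with enough UMIs in interstitial macrophage-like cells, Areg, Ereg and Hbegf were called lower and Egfr was not, beside 10.7% of all genes. The interval of Ereg included 1, and the 29 KO cells are those of which Scrublet marked 17.2%.

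Tgfa was scarce, with 54 UMIs in the KO and 298 in the WT library, and NK-like cells held the largest number. Their 218 KO cells had 27 UMIs in 16 cells (26.4 CPM, 17.4 to 38.4) and their 2038 WT cells 107 in 50 cells (13.6 CPM, 11.1 to 16.4). The ratio of 1.94 (1.22 to 2.99) fell just short of a call, and after thinning, with 10 and 28 UMIs left, its log2 value was 1.75, past the mark. Thinned shares of cells were 4.29% and 1.01%, against 0.116% and 0.0745% in B-like cells. An unnamed T cell cluster, with a Cd3e UMI in 84.1% of its cells, was led by Klra1, Sox5, Trgc4, Xcl1 and Tgfa itself. It held 50 UMIs in 23 of 163 WT cells (59.1 CPM). Another unnamed T cell cluster, led by Ifngas1 and Gzmm, had a Cd3e UMI in 92.0% of its cells. A Tgfa UMI was found in 1.60% of its KO and 4.0% of its WT cells, unthinned. Epithelial-like cells, a textbook source of this ligand, had 8 and 40 UMIs (25.7 and 32.9 CPM) and a ratio of 0.780 (0.315 to 1.69). Tgfa had 0 UMIs in γδ T-like, CD4 T-like, CD8 T-like and dendritic-like cells of either library, classes that leave out these unnamed T cell clusters.

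Betacellulin was close to the limit of detection, with 3 UMIs in the KO and 29 in the WT library, and no class reached 20. Epithelial-like cells held all 3 KO UMIs, in 1 type 2 alveolar cell, and 11 of the WT UMIs, 10 of them in 7 secretory cells. NK-like WT cells held 5. No comparison between the libraries was possible for Btc.

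On the receiving side, Egfr was highest in fibroblast-like cells. Fibroblast-like WT cells held 640 UMIs in 192 of 269 cells (356 CPM, 329 to 384). The 17 fibroblast-like KO cells held 43 UMIs (437 CPM, 316 to 589), an interval that overlapped that of the WT library, although fewer than 20 cells gave no ratio. The class held 48.3% of Egfr UMIs in the KO library, with 0.104% of all UMIs, and 54.2% in the WT library, with 1.33%. Over all cells Egfr had 89 KO and 1180 WT UMIs, while 26.3% of all genes were at or below 0.5 in that comparison, which mixes classes of very different size. Thinned, 38.3% of fibroblast-like WT cells had an Egfr UMI (71.4% before thinning), against 0.149% of B-like cells.

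Mural-like WT cells came next at 96.0 CPM (86 UMIs, 76.8 to 119). Here the order of the clusters was the opposite of that of Hbegf: the Hhip cluster was at 229 CPM and the Trpc6 and Notch3 cluster at 46.1 CPM. Ligand and receptor were thus highest in different mural clusters. Epithelial-like cells had 14 UMIs in the KO library (44.9 CPM) and 47 in the WT library (38.7 CPM), a ratio of 1.16 (0.591 to 2.15). Secretory cells held 5 and 16 of these UMIs, ciliated cells 3 and 4, and type 2 alveolar cells 0. The remaining UMIs, most of those of the WT library, lay in cells of the gate that took no epithelial type. An Egfr UMI was found in 11.1% of 9 such KO cells and in 36.4% of 11 such WT cells.

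Some Egfr was found in myeloid cells. Interstitial macrophage-like cells had 5 KO UMIs (16.6 CPM) and 161 WT UMIs (30.2 CPM), a ratio of 0.548 (0.176 to 1.31). Dendritic-like cells had 15 and 58 UMIs (13.999 and 8.52 CPM), a ratio of 1.64 (0.865 to 2.94), and nearly all lay in the Xcr1 cluster, with 15 and 54 UMIs there and 0 and 4 in the Ccl22 cluster. Plasmacytoid dendritic-like WT cells were at 27.5 CPM (27 UMIs). Egfr was called in none of the 3 classes tested. Large vessel and lymphatic endothelial-like, group 2 innate lymphoid-like and nonclassical monocyte-like cells had 0 Egfr UMIs, and general capillary endothelial-like WT cells 2. Among the 21 classes plotted, group 2 innate lymphoid-like, regulatory CD4 T-like and KO γδ T-like cells held much Areg and little or no Egfr. Fibroblast-like cells held Egfr without Areg. The split was not complete, since interstitial macrophage-like, plasmacytoid dendritic-like and epithelial-like WT cells held both.

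The other genes of the pathway were taken from 7 lists. Counts of called genes are given for γδ T-like, regulatory CD4 T-like and nonclassical monocyte-like cells, and for release genes also in alveolar macrophage-like cells. They are not given for the other classes in which Areg was called, and no values are given for the receptor signal adaptors. Of the other ligands, Nrg4, a ligand of ERBB4, was highest in alveolar macrophage-like cells at 286 CPM in the KO and 391 in the WT library, a ratio of 0.731 (0.712 to 0.751). Nrg1, a ligand of ERBB3 and ERBB4, was at 164 and 243 CPM in classical monocyte-like cells. It was lower in epithelial-like KO cells, with 10 UMIs (32.1 CPM) against 235 (193 CPM) and a ratio of 0.166 (0.0786 to 0.311). The symbol Nrg1 stood for more than 1 gene ID, and all Nrg1 values are those of the first only. Egf itself was lower in dendritic-like KO cells, with 1 UMI against 126, a ratio of 0.0504 (0.00127 to 0.286) against 9.70% of genes. In NK-like cells Nrg4 was at 43.1 CPM in the KO and 5.97 in the WT library, and Nrg1 at 20.5 and 0.762. Both were highest in macrophage-like or monocyte-like cells. The part of free RNA or of doublets in these values and in those of Areg was not tested.

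Among partner receptors, Erbb2, which has no ligand of its own and pairs with EGFR, was at 17.9 CPM in mural-like and 15.004 CPM in fibroblast-like WT cells. Erbb3 was at 32.1 and 29.6 CPM in epithelial-like KO and WT cells and at 32.6 CPM in plasmacytoid dendritic-like WT cells. Erbb4 was at 20.1 CPM in mural-like WT cells.

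Few genes of the release machinery could be tested. Of 4 release genes tested in γδ T-like cells, 4 in regulatory CD4 T-like cells and 4 in nonclassical monocyte-like cells, 0 were called in either direction. Of all genes tested in γδ T-like cells, 9.38% were higher and 7.46% lower. These shares were 3.45% and 5.12% in regulatory CD4 T-like cells. In nonclassical monocyte-like cells 2.62% were higher, and the share lower is not given. With 4 genes per class, 0 calls cannot be told from these shares. The medians of the log2 ratios of the release genes were 0.18, -0.05 and 0.05, beside -0.01, -0.01 and 0.00 over all genes tested in these classes. Adam17 was at 108 and 121 CPM in γδ T-like cells (ratio 0.890, 0.598 to 1.34) and at 166 and 148 CPM in nonclassical monocyte-like cells. In alveolar macrophage-like cells it was at 191 and 198 CPM. There 1 of 6 release genes, Timp3, an inhibitor of ADAM17, was called lower, where 5.25% of genes were at or below 0.5. Timp3 had 0 KO UMIs, and 75 WT UMIs among the 45115141 UMIs of the WT class. The part of free RNA in this value was not tested.

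Some feedback inhibitors of the receptor were called lower in γδ T-like and regulatory CD4 T-like cells, a larger share than of all genes but on few genes. In γδ T-like cells 2 of 6 tested were lower, Cbl with a ratio of 0.445 (0.314 to 0.63) and Cblb with 0.414 (0.346 to 0.496), both of them ubiquitin ligases that also act below the T cell receptor, where 7.46% of all genes were at or below 0.5. In regulatory CD4 T-like cells 1 of 7, Lrig1, was lower with a ratio of 0.346 (0.242 to 0.485), where 5.12% of all genes were. In nonclassical monocyte-like cells 0 of 6 were called, where 2.62% of all genes were higher and the share lower is not given. The list medians were -0.39, -0.11 and -0.12 on the log2 scale, to be read beside the medians over all genes of these classes given above for the release genes. Errfi1, an inhibitor induced by EGFR itself, was highest in fibroblast-like WT cells at 509 CPM, the class with most Egfr.

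Areg is also an immediate-early gene, and tissue dissociation can induce such genes, so a list of 16 of them was set beside it. In γδ T-like cells 0 of 13 tested were higher and 4 were lower in the KO library: Fos (ratio 0.286), Fosb (0.146), Egr1 (0.187) and Atf3 (0.376), beside 9.38% and 7.46% of all genes tested. Their median log2 ratio was -0.18, and their summed level was 6609 CPM in the KO and 8077 in the WT library. Nr4a1, seen more often in Areg-positive than in Areg-negative KO cells, had a ratio of 0.941. The part of dissociation in the Areg values was not tested. In nonclassical monocyte-like cells 1 of 16, Ier3, was higher and 0 lower, with summed levels of 9023 and 9297 CPM. Of all genes tested there, 2.62% were higher, and the share lower is not given. In regulatory CD4 T-like cells 0 of 15 were higher and 1, Hspa1b, was lower, with 6735 and 6272 CPM, beside 3.45% and 5.12% of all genes. With so few genes, the counts in these 2 classes cannot be told from the shares over all genes.

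Genes whose levels ran most like those of each member were found across the 21 classes with at least 50 cells, both libraries summed, among 13088 genes. The correlations describe classes that share libraries and depth, and carry no test. For Areg, Pearson's r was 0.82 with Mapkapk3, 0.81 with Impa2, and 0.80 with Dkkl1, Acsl4 and Ramp1. Ereg ran with Chd5 at 0.96 and with 1700020N01Rik and 9430069I07Rik at 0.90, all highest in alveolar macrophage-like cells. For Hbegf the closest were Rerg at 0.85 and Hey1 and Lmcd1 at 0.81, and for Tgfa Col23a1 at 0.84, Cfap77 at 0.80 and Sox6 at 0.78. Egfr ran with Robo2 at 0.90, Irak1bp1 at 0.88 and Rbp4 at 0.86. For Btc, whose 26 UMIs were too few to be read, they were Fxyd3, Kcnk2 and Gsta4.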

How the data were processed

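The authors deposited raw UMI counts per gene and cell barcode for each library, made with Cell Ranger 9.0.1 on GRCm39 (mm39) per the submitters' processing notes. The annotation release is not given in the sources used here. The 18 antibody tags in the tables were not used. The study's methods give 2 samples per genotype and 1 each was analysed here.

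Cells with over 500 UMIs, over 200 genes and under 20% mitochondrial UMIs were kept. Ribosomal, mitochondrial and Gm genes, 19.0% (KO) and 16.5% (WT) of UMIs, were left out of clustering and of CPM. Both libraries were clustered together with scanpy 1.11.5 (2000 variable genes without the pathway genes, 50 components, 15 neighbours, Leiden resolution 0.8), and T cell and non-immune clusters were clustered again. A cluster took the name of a type from its markers, doublets were scored with Scrublet and kept in the main values, and no batch correction was made. UMIs were summed per library and class. Intervals are exact Poisson (levels), exact conditional binomial (ratios) and Clopper-Pearson (shares) at 95%, and UMIs within a burst of 1 cell are not independent, so they are too narrow where few cells hold most UMIs. Shares were thinned to 1500 UMIs per cell. The named genes are the 6 members, list genes described where a level or ratio bears on them, and the 5 (Areg) or 3 (others) genes most like each member. Members and lists were chosen with earlier results of these data known. The calling step was tested on simulated data. Promoters are from RefSeq (GRCm38.p6).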

Additional observations from a re-analysis of the deposited data

Results flagged for a closer look

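The Areg ratio between the libraries ran in opposite directions in different cell classes, with counting intervals that lay on opposite sides of no change, and the difference between classes was not tested because each genotype had 1 library. On the log2 scale, KO over WT, Areg was at 5.44 in γδ T-like, 4.18 in nonclassical monocyte-like and 1.44 in dendritic-like cells. It was at -2.88 in interstitial macrophage-like and -1.66 in NK-like cells, and at most at -2.52 in epithelial-like cells, where the KO library had 0 UMIs. The lower values rest on 3, 3 and 0 KO UMIs, and the higher ones on 515, 359 and 63.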

How the results depend on the processing

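Of 155 values recomputed under another setting, 118 moved by less than the counting interval of the reported value and 37 moved further. Of 73 log2 ratios 10 moved. Areg in γδ T-like cells went to 3.14 without Trdc-positive cells, a split added after the data were seen, and otherwise ran from 5.23 to 5.65. Areg in nonclassical monocyte-like cells went to 3.25 (Leiden 0.5), 2.77 (libraries clustered alone) and 1.35 (marker gates), in regulatory CD4 T-like cells to 1.31 (gates), and in alveolar macrophage-like cells to 0.087 (clustered alone). In classical monocyte-like cells it went to -1.05 (Leiden 1.2) and, with the sign changed, to 0.62 (clustered alone). After thinning, Ereg in alveolar macrophage-like cells changed sign to -0.085 and Tgfa in NK-like cells went to 1.75. The causes were not tested.

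With CPM over all genes, whose larger total lowers every level, Areg was at 891 (group 2 innate lymphoid-like, WT), 612 (γδ T-like, KO), 507 (regulatory CD4 T-like, KO) and 352 CPM (regulatory, WT), Ereg in WT alveolar macrophage-like cells at 39.4 and Egfr in WT fibroblast-like cells at 301. Areg in γδ T-like KO cells was at 897 (Leiden 1.2), 1353 (clustered alone) and 874 (gates), and in regulatory CD4 T-like cells at 576 (KO, Leiden 1.2), 1397 (KO, gates) and 564 (WT, gates). Without Scrublet calls, group 2 innate lymphoid-like cells were at 1372. Ereg was at 39.9 in gated WT alveolar macrophage-like cells, and Hbegf at 228 in thinned mural-like cells.

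The alveolar macrophage-like share of WT Areg UMIs was 43.3% without Scrublet calls, 44.9% clustered alone and 21.4% with gates, and of WT Ereg 89.5%, 87.0% and 43.9%. The classical monocyte-like share of KO Areg was 34.5% without Scrublet calls, 45.4% (Leiden 0.5), 28.9% (Leiden 1.2), 18.5% (alone) and 40.2% (gates). Unthinned, 56.3% of group 2 innate lymphoid-like WT cells had an Areg UMI. Median-of-ratios scaling shifted ratios by -0.07 to 0.02. Ratios for γδ T-like cells at Leiden 1.2 and clustered alone, and for Hbegf in capillary cells clustered alone, were not computed for want of cells in one library.

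No paired analysis was possible because each genotype had 1 library, and for the same reason no replicate was left out. Precision is limited by this, by rare classes (9 group 2 innate lymphoid-like, 17 fibroblast-like and 5 mural-like KO cells), and by bursts, since most Areg UMIs of a class sat in few cells.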

Other observations

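Areg was also found in clusters that took no name. A cluster led by Aif1, Adgre4, Plac8 and Apoe held 720 UMIs in 1067 KO cells (76.3 CPM) and 203 in 260 WT cells (108 CPM), a ratio of 0.707 (0.604 to 0.830), and with it 12.7% of the Areg UMIs of the KO library. A cycling cluster led by Top2a and Mki67 held 107 UMIs in 209 KO cells (31.9 CPM) and 297 in 361 WT cells (51.2 CPM). The cluster led by Klra1, Sox5 and Trgc4, which held Tgfa, had 6 Areg UMIs in its 163 WT cells (7.10 CPM).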
